A study of Mus musculus with 12 samples.

Results

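The genes described here are 10 adipogenic transcription factors, the DNA-binding proteins that commit precursor cells to the fat lineage and then switch on the genes of the mature adipocyte. They were taken by symbol from the table of all genes, where all 10 of 10 were found among 55281 annotated genes and all 10 were among the 18427 genes tested. By their place in fat cell formation they fall into 3 commitment factors (Zfp423, Ebf1 and Ebf2), 2 early factors (Cebpb and Cebpd) and 5 late factors (Pparg, Cebpa, Rxra, Klf15 and Nr1h3). They were measured by bulk poly(A) RNA sequencing in the visceral fat depot beside the gonads (gonadal white adipose tissue, GWAT) of male mice aged 22 to 24 weeks.

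All mice carried floxed alleles of Hoip (Rnf31), which encodes the catalytic subunit of the linear ubiquitin chain assembly complex. HoipA-KO mice were Hoip fl/fl AdipoQ.Cre+, so that Cre was driven by the adiponectin promoter, which is active in mature adipocytes, while WT controls were Hoip fl/fl AdipoQ.Cre-. From 6 weeks of age, mice of both genotypes received a control diet with 14% fat (CD) or a high-fat diet with 60% fat (HFD) for 16 weeks. The groups WT CD, WT HFD, HoipA-KO CD and HoipA-KO HFD had 3 libraries each, and each library was made from GWAT of 3 pooled mice. Other cells of the depot, such as macrophages, endothelial cells and progenitors, kept Hoip and contributed RNA to every library.

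In the textbook order of adipogenesis, Zfp423, Ebf1 and Ebf2 mark and maintain the commitment of precursors, and hormonal signals then induce Cebpb and Cebpd. These early C/EBP proteins activate Pparg and Cebpa, which sustain each other and drive the genes of lipid uptake, storage and release. PPARG binds DNA as a heterodimer with RXRA, the product of Rxra, and Nr1h3 encodes the oxysterol receptor LXR alpha, another partner of RXRA. Klf15 is a zinc finger factor that rises late in adipocyte differentiation and promotes expression of the insulin-responsive glucose transporter gene Slc2a4. Several of these factors also act outside adipocytes: Cebpb, Cebpd and Nr1h3 are well known in macrophages, and Ebf1 in B cells.

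The stretches before the transcription starts of 4 members are shown because Pparg and Cebpa are the genes that the early factors activate, Klf15 is the member that differed most, and Cebpb is the early factor set against them below. Each is 250 bases long, ends at the base before the start, and was taken from RefSeq on GRCm38.p6. All 4 lie on the plus strand: Pparg at chr6:115421816-115422065, the most downstream of its 3 RefSeq windows, Cebpa at chr7:35119043-35119292, Klf15 at chr6:90462326-90462575 and Cebpb at chr2:167688665-167688914. Capitals mark letters that match a C/EBP motif (TTGCNNAA or TTNNGCAA), an EBF motif (CCCNNGGG), a CCAAT box (CCAAT or ATTGG) or a TATA box (TATAAA or TTTATA), on either strand.
Pparg: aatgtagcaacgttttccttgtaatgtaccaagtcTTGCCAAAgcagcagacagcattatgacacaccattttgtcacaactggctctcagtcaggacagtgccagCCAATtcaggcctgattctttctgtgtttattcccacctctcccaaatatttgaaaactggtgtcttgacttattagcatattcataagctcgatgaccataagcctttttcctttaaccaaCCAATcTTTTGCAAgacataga
Cebpa: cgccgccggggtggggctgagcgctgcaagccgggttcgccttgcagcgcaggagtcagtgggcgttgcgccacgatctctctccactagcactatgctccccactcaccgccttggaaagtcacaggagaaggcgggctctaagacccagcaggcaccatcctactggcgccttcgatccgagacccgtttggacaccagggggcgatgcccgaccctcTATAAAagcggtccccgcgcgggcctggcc
Klf15: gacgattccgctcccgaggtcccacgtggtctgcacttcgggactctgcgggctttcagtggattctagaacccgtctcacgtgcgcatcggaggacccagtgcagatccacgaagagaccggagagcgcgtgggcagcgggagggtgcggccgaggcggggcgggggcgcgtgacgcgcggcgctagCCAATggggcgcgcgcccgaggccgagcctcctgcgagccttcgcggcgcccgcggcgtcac
Cebpb: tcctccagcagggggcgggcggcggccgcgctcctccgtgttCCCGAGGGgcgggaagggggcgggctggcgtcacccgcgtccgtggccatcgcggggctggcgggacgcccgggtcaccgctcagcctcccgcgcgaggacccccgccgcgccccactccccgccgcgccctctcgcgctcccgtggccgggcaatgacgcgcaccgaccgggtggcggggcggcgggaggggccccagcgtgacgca
The Pparg stretch held 2 C/EBP matches, at -215 to -208 and at -16 to -9 from the start, and 2 CCAAT boxes, of which the one at -22 to -18 lies next to the second C/EBP match. The stretch before Cebpa held a TATA box at -30 to -25, that before Klf15 a CCAAT box at -62 to -58, and that before Cebpb an EBF match at -208 to -201. Among the windows not shown, the other member with C/EBP letters was Zfp423, with 2 matches at -131 to -124 and 23 to 30 in one window and an EBF match at -28 to -21 in another. Among all 32851 RefSeq windows of 300 bases (250 before and 50 after the start), 10.8% held the C/EBP letters, 13.7% the EBF letters, 37.4% a CCAAT box and 13.6% a TATA box. The direct repeat read by the PPARG and RXRA heterodimer (AGGTCA, 1 base, AGGTCA, on either strand) occurred in 0.0396% of all windows and in none of the 14 windows of the 8 members that had one. A match is a description of the letters only. The counts are per gene, so transcripts from the different Pparg starts could not be told apart.

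Each library held between 30513500 and 60540260 estimated counts, and levels are given as CPM, the estimated counts per 1000000 of a library's total after that total was multiplied by its TMM factor (0.895 to 1.11), which scales for RNA composition. Before TMM scaling, a level of 3 counts corresponded to 0.0496 to 0.0983 CPM. Members had between 267 estimated counts (Klf15 in HoipA-KO CD replicate 2) and 41013 (Cebpa in WT CD replicate 1), so all were far above that floor. The WT CD libraries stood apart from each other: 3616 genes in replicate 3 and 361 in replicate 2 were more than 8-fold above every other library, and 12 epididymis markers summed to 16306 CPM in replicate 2. These markers also summed to 1322 and 121 CPM in HoipA-KO HFD replicates 1 and 3. They reached 111 CPM in HoipA-KO CD replicate 3, 104 in WT CD replicate 3 and at most 7.04 elsewhere. The 9 mural cell markers (such as Rgs5 and Acta2) summed to 3145 CPM in HoipA-KO HFD replicate 1 and to 377 to 950 in the other libraries. Because the comparisons deposited by the authors left out WT CD replicate 3, the tests used 11 libraries, and values with all 12 are also given. The targeted gene Rnf31 lay at 12.9 to 21.8 CPM in WT and at 17.6 to 22.1 CPM in HoipA-KO libraries, so its whole-tissue count did not separate the genotypes.

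The labelled tissue was checked with 12 adipocyte markers (such as Adipoq, Plin1 and Lep), all of them above the floor in every library. Their summed level was 19641 to 65776 CPM in WT CD, 28091 to 40573 in WT HFD, 7435 to 11320 in HoipA-KO CD and 6383 to 9185 in HoipA-KO HFD. The 10 macrophage markers (such as Adgre1, Cd68 and C1qa) went the other way, from 533 to 788 CPM in WT CD and 2136 to 6415 in WT HFD to 10133 to 13166 in HoipA-KO CD and 8080 to 12294 in HoipA-KO HFD. The 10 progenitor markers (such as Pdgfra and Dcn) summed to 1249 to 2095, 3567 to 6650, 5787 to 7690 and 7563 to 8265 CPM in the same order of groups. Col3a1, Dcn and Col1a1 made the largest parts of this sum, with means of 3047, 1522 and 1058 CPM in HoipA-KO CD. Dpp4 went the other way, from 51.6 ± 54.6 CPM in WT CD (SD, n = 2) to 17.4 ± 7.15 in HoipA-KO CD. On HFD the means of Dpp4 (22.0 and 15.9 CPM) and Pi16 (41.6 and 34.4 CPM) were also lower in HoipA-KO than in WT. In bulk tissue, fewer adipocytes and less RNA per adipocyte cannot be told apart, and the part of cell composition in the values below was not tested.

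On CD, 5 members were lower in HoipA-KO than in WT GWAT and none was higher: Klf15, Ebf1, Pparg, Cebpa and Ebf2 (quasi-likelihood test in edgeR, p-values adjusted by Benjamini-Hochberg across the whole table). Among all genes tested 18.8% were called lower and 18.9% higher in that comparison. On HFD, 4 members were lower and none higher: Klf15, Zfp423, Ebf1 and Pparg, against 7.62% called lower and 4.2% higher among all genes. The 2 early factors, Rxra and Nr1h3 were called on neither diet in this fit. With WT CD replicate 3 included, 2 members remained lower on CD (Klf15 and Ebf1, against 19.1% of all genes) and none was called on HFD (against 2.25% of all genes). At an unadjusted p under 0.05, 5812 genes passed on HFD with 11 libraries and 3931 with 12. DESeq2 with 11 libraries called 4410 of 18427 genes on HFD, counted over both directions, among them 6 members, all lower. The HFD calls also depended on single libraries, over all genes as well as for the members. No member was called without WT HFD replicate 1 or 2 or without HoipA-KO HFD replicate 2 or 3. In these fits 279, 331, 313 and 550 genes were called, beside 2179 with all 11 libraries. Without HoipA-KO CD replicate 1, a library of the other diet, 1 member and 1126 genes were called. Without HoipA-KO HFD replicate 1, 2 members and 2086 genes were. Over the fits without 1 library, the estimates ran from -2.08 to -1.71 for Klf15 and -1.59 to -1.16 for Zfp423. Those of Ebf1 ran from -1.32 to -1.09 and those of Pparg from -1.23 to -0.85. On CD, 3 members were lower without HoipA-KO CD replicate 2, where 5108 of 18376 genes were called in either direction. With all 11 libraries 6947 of 18427 were. Leaving out WT CD replicate 1 or 2 left a single WT CD library. The CD estimates were then -2.21 or -3.51 (Klf15), -0.63 or -2.08 (Ebf1), -0.75 or -1.86 (Pparg), -0.22 or -1.83 (Cebpa) and -0.35 or -1.57 (Ebf2). With replicates 2 and 3 as the WT CD libraries, 2 members were lower (Klf15 and Ebf1) and 2 higher (Cebpb and Nr1h3). In that fit 8264 of 19416 genes were called in either direction. The median log2 fold change of all genes on CD was -0.06 with 11 libraries and -0.21 with 12.

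**Figure D1:**
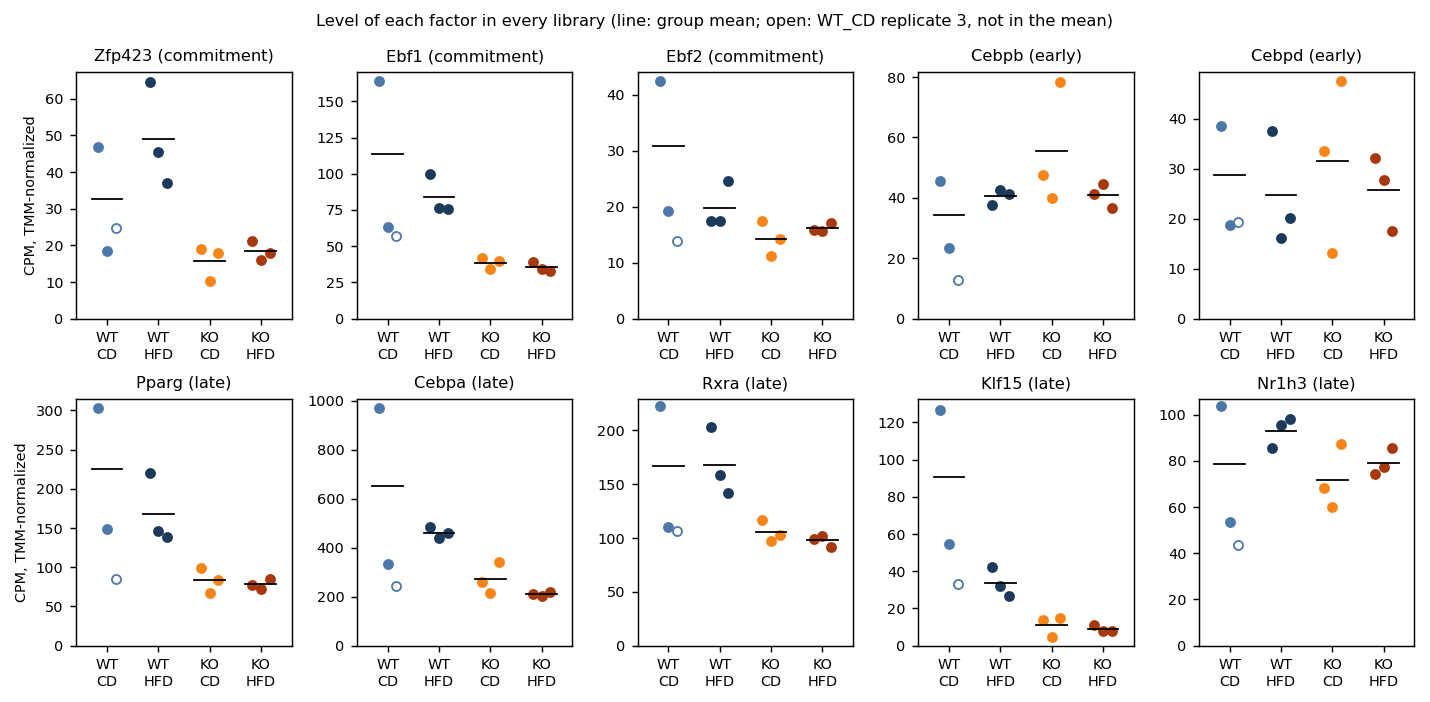
Level of each of the 10 factors in every library, in TMM-normalized CPM on a linear axis from 0, with lines at the group means. Open symbols are WT CD replicate 3, which is not in the mean. Ebf1 and Klf15 are lower in all 6 HoipA-KO libraries than in any WT library, as are 8.25% of all genes tested. The libraries of every other factor, early, late or of commitment, overlap between the genotypes.

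Within libraries, the order of the factors can be compared only per length, as CPM per kilobase of exon (exon length from GENCODE vM21, summed over a gene's transcripts). On this scale Cebpa was highest in every group, from 247 ± 170 (SD, n = 2) in WT CD and 175 ± 8.72 (n = 3) in WT HFD to 103 ± 24.1 (HoipA-KO CD) and 79.7 ± 2.69 (HoipA-KO HFD). Pparg stood second in both WT groups, at 76.4 ± 37.0 in WT CD and 57.1 ± 15.3 in WT HFD, and behind 3 other factors in both HoipA-KO groups, at 28.3 ± 5.44 and 26.5 ± 2.22. Around it in the HoipA-KO groups were Cebpb, at 36.8 ± 13.5 and 27.2 ± 2.68, and Nr1h3, at 28.5 ± 5.57 and 31.4 ± 2.29, and these 3 neighbours lay within each other's spread except for Nr1h3 against Pparg on HFD.

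Klf15 fell furthest along this order, from the third place in WT CD (32.5 ± 18.2 CPM per kilobase) to sixth in WT HFD (12.1 ± 2.85), seventh in HoipA-KO CD (4.01 ± 2.02) and ninth in HoipA-KO HFD (3.19 ± 0.663). The third place in WT CD rested on replicate 1, since Klf15 was below Nr1h3 and Rxra in replicate 2 (19.6 against 21.3 and 20.2) and in replicate 3 (11.9 against 17.4 and 19.5). Ebf2 was lowest in every group, between 2.06 ± 0.445 in HoipA-KO CD and 4.45 ± 2.38 in WT CD. Among the other low factors, Ebf1, Zfp423 and Cebpd lay between 2.79 and 11.6 CPM per kilobase in all groups, and in the HoipA-KO groups the range of Klf15 overlapped those of both Ebf1 and Zfp423.

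Of the commitment factors, Ebf1, a helix-loop-helix factor that acts with PPARG in adipocytes, gave the clearest separation. It was at 164, 63.1 and 57.0 CPM in WT CD, 100.0, 76.2 and 75.7 in WT HFD, 41.6, 34.1 and 40.1 in HoipA-KO CD and 39.3, 34.6 and 32.6 in HoipA-KO HFD. All 6 HoipA-KO libraries were below all WT libraries of both diets, whether or not WT CD replicate 3 was counted. Ebf1 was lower by a log2 fold change of -1.53 (SE 0.33, edgeR adjusted p = 0.00673) on CD and of -1.25 (SE 0.31, edgeR adjusted p = 0.0342) on HFD. Including WT CD replicate 3 gave changes of -1.30 (adjusted p = 0.0219) and -1.26 (adjusted p = 0.0863). The size on CD rested on WT CD replicate 1, without which it was -0.63 (adjusted p = 0.0344).

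Zfp423, a zinc finger factor of committed preadipocytes, was at 46.8, 18.5 and 24.8 CPM in WT CD, 64.6, 45.4 and 37.1 in WT HFD, 18.9, 10.2 and 17.8 in HoipA-KO CD and 21.3, 16.0 and 17.9 in HoipA-KO HFD. The HFD groups did not overlap, whereas WT CD replicate 2 lay within the HoipA-KO CD range. The log2 fold change was -1.42 (SE 0.37, edgeR adjusted p = 0.0394) on HFD and -1.04 (SE 0.40, edgeR adjusted p = 0.0662) on CD. The CD value was -0.16 without WT CD replicate 1 (adjusted p = 0.771) and -1.58 without replicate 2 (adjusted p = 0.00806), and DESeq2 called it lower (-1.07, adjusted p = 0.0298). With all 12 libraries the HFD difference was -1.44 with an adjusted p of 0.0705.

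Ebf2, known for its role in beige and brown fat cells, was at 42.5, 19.2 and 13.9 CPM in WT CD, 17.4, 17.4 and 24.5 in WT HFD, 17.4, 11.2 and 14.2 in HoipA-KO CD and 15.9, 15.6 and 17.2 in HoipA-KO HFD. It was lower in HoipA-KO on CD (log2 fold change -1.09, SE 0.32, edgeR adjusted p = 0.0237). That call rested on WT CD replicate 1: without it the value was -0.35 (adjusted p = 0.324), and with all 12 libraries -0.83 (adjusted p = 0.109). On HFD the difference was -0.29, with a 95% interval of -0.93 to 0.36.

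The early factors are the C/EBP proteins induced at the start of differentiation. Cebpb was at 45.5, 23.4 and 12.8 CPM in WT CD, 37.7, 42.6 and 41.2 in WT HFD, 47.7, 40.0 and 78.4 in HoipA-KO CD and 41.1, 44.7 and 36.7 in HoipA-KO HFD. The HFD groups lay on top of each other, and HoipA-KO CD replicate 3 was the highest of all libraries. The log2 fold change was 0.71 on CD (SE 0.32, 95% interval -0.01 to 1.44, edgeR adjusted p = 0.109) and 0.01 on HFD (SE 0.28, 95% interval -0.62 to 0.65, edgeR adjusted p = 0.982). Without WT CD replicate 1, Cebpb was called higher on CD (1.32, adjusted p = 0.0157), a fit in which the lone WT CD library was taken to vary like the other groups. It was also called higher with replicates 2 and 3 as the WT CD libraries (1.68, adjusted p = 0.00439).

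Cebpd was at 38.6, 18.8 and 19.4 CPM in WT CD, 37.6, 16.2 and 20.3 in WT HFD, 33.6, 13.1 and 47.7 in HoipA-KO CD and 32.1, 27.8 and 17.6 in HoipA-KO HFD. All 4 groups overlapped, and the spread within each was as wide as the differences between them. The log2 fold change was 0.15 on CD (95% interval -1.08 to 1.38) and 0.06 on HFD (95% interval -1.04 to 1.16), the widest intervals of the 10 factors on CD and HFD.

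Of the late factors, Klf15 differed most. It was at 127, 54.8 and 33.1 CPM in WT CD, 42.3, 32.0 and 26.6 in WT HFD, 13.8, 4.72 and 15.1 in HoipA-KO CD and 11.04, 7.69 and 8.01 in HoipA-KO HFD. The highest HoipA-KO library, at 15.1 CPM, lay below the lowest WT library, at 26.6 CPM. On CD Klf15 was 8.00-fold lower (log2 fold change -3.00, SE 0.49, edgeR adjusted p = 0.00165), and with all 12 libraries the change was -2.68 (adjusted p = 0.0057). Without WT CD replicate 1 it was -2.21 (adjusted p = 0.00873), and with replicates 2 and 3 as the WT CD libraries -1.91 (adjusted p = 0.00981). On HFD the change was -1.92 (SE 0.45, edgeR adjusted p = 0.0283), or -1.94 with all 12 libraries (adjusted p = 0.0774).

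Pparg, the master regulator of fat cell differentiation, was at 303, 148 and 84.6 CPM in WT CD, 221, 146 and 139 in WT HFD, 99.2, 67.0 and 84.2 in HoipA-KO CD and 77.6, 71.9 and 84.9 in HoipA-KO HFD. WT CD replicate 3 lay inside the HoipA-KO range, and every other WT library stood above that range. Pparg was lower by a log2 fold change of -1.41 on CD (SE 0.32, edgeR adjusted p = 0.00821) and of -1.11 on HFD (SE 0.29, edgeR adjusted p = 0.0407). Including WT CD replicate 3 gave -1.11 (adjusted p = 0.0561) and -1.13 (adjusted p = 0.145). Without WT CD replicate 1 the CD value was -0.75 (adjusted p = 0.067).

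Cebpa, which keeps Pparg expressed and makes adipocytes responsive to insulin, was at 969, 335 and 243 CPM in WT CD, 486, 440.2 and 459 in WT HFD, 259, 215 and 340.0 in HoipA-KO CD and 210.0, 203 and 217 in HoipA-KO HFD. The HFD groups were far apart relative to their own spread, while on CD only WT CD replicate 1 stood above the HoipA-KO range. The log2 fold change on CD was -1.24 (SE 0.37, edgeR adjusted p = 0.0265), which became -0.22 without that library (adjusted p = 0.486) and -0.94 with all 12 libraries (adjusted p = 0.118). On HFD it was -1.14 (SE 0.34, 95% interval -1.90 to -0.37, edgeR adjusted p = 0.0587), with an adjusted p of 0.00673 in DESeq2.

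Rxra, the shared partner of PPARG and the LXRs, was at 223, 110.3 and 106 CPM in WT CD, 204, 158 and 142 in WT HFD, 116, 97.1 and 103 in HoipA-KO CD and 99.6, 102 and 91.9 in HoipA-KO HFD. The HFD groups again did not overlap, and the CD groups did. The log2 fold change was -0.63 on CD (SE 0.28, edgeR adjusted p = 0.104) and -0.78 on HFD (SE 0.26, 95% interval -1.36 to -0.21, edgeR adjusted p = 0.0722). DESeq2 called Rxra lower on HFD (adjusted p = 0.0184).

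Nr1h3 was at 104, 53.6 and 43.7 CPM in WT CD, 85.4, 95.3 and 98.2 in WT HFD, 68.3, 59.8 and 87.2 in HoipA-KO CD and 74.2, 77.3 and 85.4 in HoipA-KO HFD. The CD groups overlapped, and on HFD the highest HoipA-KO and the lowest WT library were both at 85.4 CPM. The log2 fold change was -0.10 on CD (95% interval -0.70 to 0.49) and -0.23 on HFD (95% interval -0.77 to 0.30). On CD the sign depended on the WT CD libraries: it was 0.09 with all 12 libraries (adjusted p = 0.822), and with replicates 2 and 3 in place of 1 and 2 Nr1h3 was called higher in HoipA-KO (0.63, adjusted p = 0.021).

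**Figure D2:**
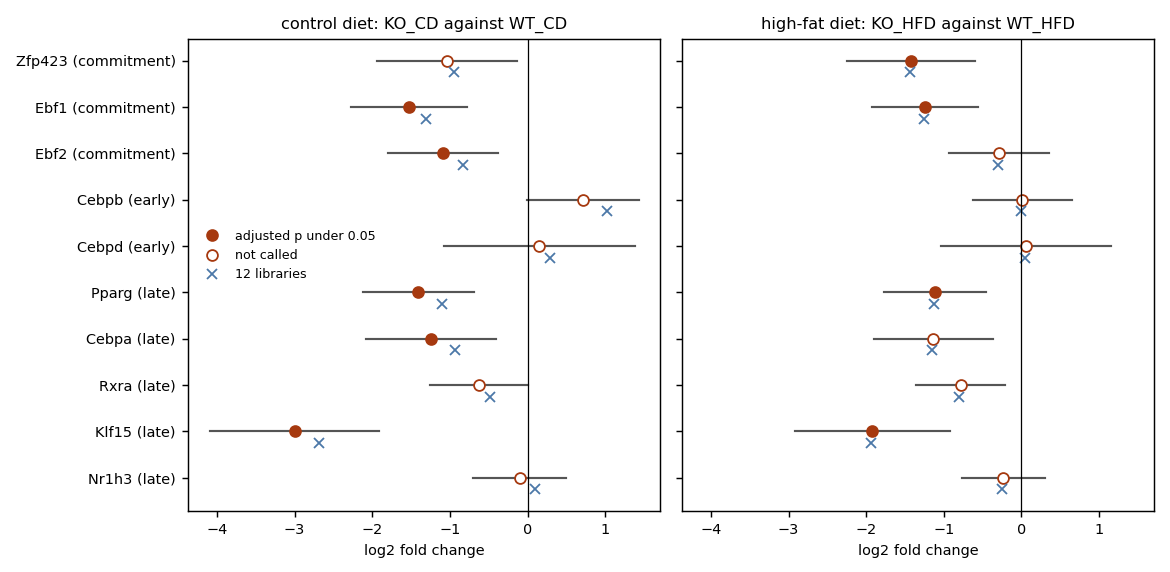
Log2 fold change of each factor between HoipA-KO and WT on CD (left) and HFD (right), with 95% intervals from the fit of 11 libraries. Filled circles passed an adjusted p of 0.05, open circles did not, and crosses are the estimates with all 12 libraries. Klf15 has the lowest estimate on both diets, and the intervals of Cebpb, Cebpd and Nr1h3 include 0 on both.

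By non-overlap alone, 8 members were lower in all 3 HoipA-KO HFD libraries than in all 3 WT HFD libraries, which held for 23.1% of all genes tested. For Ebf2 and Nr1h3 among these 8 the gap was narrow (17.2 against 17.4 CPM, and 85.4 against 85.4 CPM after rounding). On CD 4 members were lower in all HoipA-KO libraries than in both WT CD libraries of the fit (27.8% of all genes), and 2 with WT CD replicate 3 included (19.7% of all genes). Over both diets and all 12 libraries, Ebf1 and Klf15 were lower in every HoipA-KO library than in every WT library, as were 8.25% of all genes.

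Of the 5 late factors, Pparg and Cebpa were then read against the early factors within each library, where depth and scaling cancel. The value was the difference of log2(CPM + 1) between the late and the early factor. Cebpa minus Cebpb was 4.38, 3.78 and 4.15 in WT CD, 3.65, 3.34 and 3.45 in WT HFD, 2.42, 2.40 and 2.10 in HoipA-KO CD and 2.32, 2.16 and 2.53 in HoipA-KO HFD. Every one of the 6 HoipA-KO libraries lay below every one of the 6 WT libraries, WT CD replicate 3 included. Pparg minus Cebpb was 2.71, 2.61 and 2.64 in WT CD and 2.52, 1.75 and 1.73 in WT HFD, against 1.04, 0.73 and 0.10 in HoipA-KO CD and 0.90, 0.67 and 1.19 in HoipA-KO HFD. These again did not overlap. As a background, 12.9% of 18073 other genes tested in the fit of 12 libraries were lower relative to Cebpb in every HoipA-KO than in every WT library. Separation against Cebpb was not particular to late factors. The commitment factor Ebf1 was above Cebpb in CPM in every WT library and below it in every HoipA-KO library. The late factor Nr1h3 gave no full separation. It was at 95.3 CPM beside 42.6 for Cebpb in WT HFD replicate 2, and at 85.4 beside 36.7 in HoipA-KO HFD replicate 3.

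Against the other early factor, Cebpd, the genotypes overlapped. Pparg minus Cebpd was 2.07 to 3.09 in WT and 0.81 to 2.27 in HoipA-KO libraries, and Cebpa minus Cebpd was 3.58 to 4.68 in WT and 2.67 to 3.93 in HoipA-KO libraries. The overlap of Pparg minus Cebpd came from WT CD replicate 3, at 2.07, and the other WT libraries started at 2.52. For Cebpd the background of genes with full separation was 2.43%. No test was run on these differences between genes, which share the level of 1 early factor in each library. Beside them, the macrophage marker levels above also separated the HoipA-KO from the WT libraries, and since Cebpb is expressed in macrophages as well as in fat cells, the counts do not say in which cells it was measured.

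**Figure D3:**
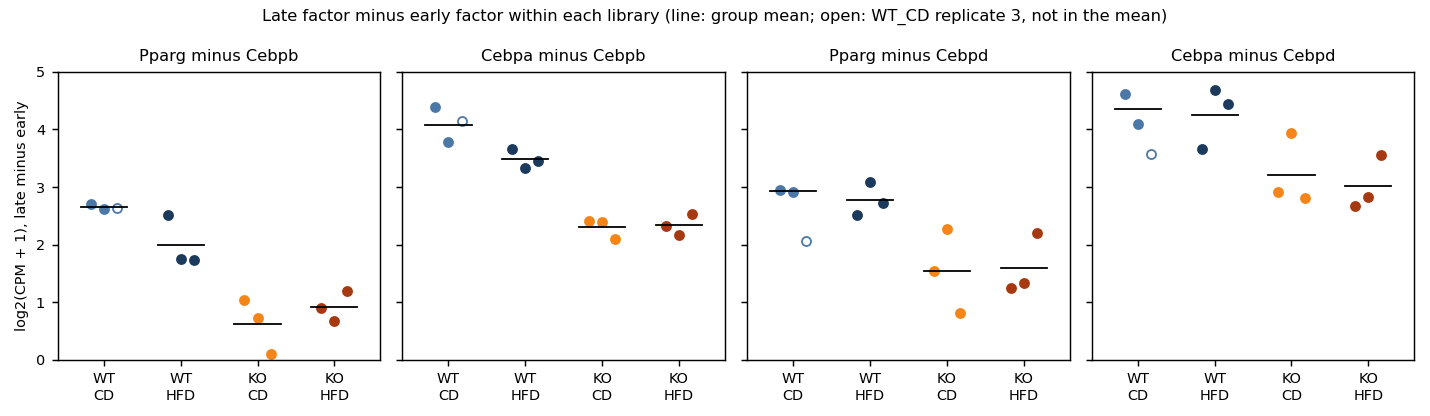
Difference of log2(CPM + 1) between a late factor (Pparg or Cebpa) and an early factor (Cebpb or Cebpd) within each library, by group. Points are libraries, lines are group means, and the open symbol is WT CD replicate 3, not in the mean. The 6 HoipA-KO libraries lie below the 6 WT libraries against Cebpb (at most 2.53 against at least 3.34 for Cebpa) and overlap them against Cebpd.

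The diet by itself moved no member past the threshold. In WT mice, none of the 10 was called between HFD and CD, against 9.35% of all genes called higher and 5.47% lower. The lowest estimate was that of Klf15, at -1.41 (SE 0.47, edgeR adjusted p = 0.0725), and DESeq2 called it lower (-1.44, adjusted p = 0.0192). The WT CD libraries decided these values: with replicates 2 and 3 in place of 1 and 2, 6 members were higher on HFD, and Klf15 was not called. In that fit 7046 of 19416 genes were called in either direction, beside 2731 of 18427 in the main fit. In HoipA-KO mice no member and none of the 18427 genes was called between the diets in edgeR, with 415 genes at an unadjusted p under 0.05 and 7 genes called by DESeq2. Member estimates there ran from -0.44 for Cebpb to 0.23 for Zfp423.

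The genotype effect was also compared between diets by its interaction. No member passed, against 3.91% of all genes. The largest estimates were 1.08 for Klf15 (95% interval -0.36 to 2.52, edgeR adjusted p = 0.35), 0.80 for Ebf2 (95% interval -0.16 to 1.76, edgeR adjusted p = 0.298) and -0.70 for Cebpb (95% interval -1.66 to 0.26, edgeR adjusted p = 0.363). Calls made on one diet and not on the other, such as those of Zfp423, Ebf2 and Cebpa, are therefore not shown to differ between the diets.

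The genes around the factors were read as 5 lists of their known targets, coregulators and relatives. Their counts stand against 18.9% of all genes called higher and 18.8% lower on CD, and 4.2% and 7.62% on HFD. Of 20 PPARG targets, 16 were lower and 1 higher in HoipA-KO on CD, and 16 were lower and none higher on HFD, with median log2 fold changes of -1.64 and -1.75 beside -0.06 and 0.06 over all genes tested. In the fit of all 12 libraries, 14 passed as lower on CD and 11 did on HFD. The list shares 9 genes with the adipocyte markers, of which 11 of 12 were lower on CD and 12 of 12 on HFD (8 of 12 on HFD with all 12 libraries).

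Fabp4, the fatty acid carrier of adipocytes, was at 15687 ± 8095 CPM in WT CD (SD, n = 2) and 4366 ± 952 in HoipA-KO CD (n = 3), a log2 fold change of -1.82 (edgeR adjusted p = 0.00416). Pck1, the key enzyme of glycerol synthesis for triglyceride storage, was lower on both diets (-3.53 and -3.14), as was Cidea, a lipid droplet protein (-4.95 and -2.79). With all 12 libraries Cidea was not called on HFD (adjusted p = 0.0559). Lpl, the lipase that frees fatty acids from lipoproteins, was not called (-0.52 on CD and -0.86 on HFD). The 1 target that was higher on CD was Fabp5 (1.70, edgeR adjusted p = 0.00191), a fatty acid carrier also made by macrophages, named here after its value was seen.

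Of the 12 LXR targets, 3 were higher (25.0%) and 4 lower (33.3%) on CD, and 1 was higher (8.33%) and 2 lower (16.7%) on HFD, with medians of 0.02 and -0.20. Pltp, a phospholipid transfer protein, rose by 3.07 on CD (edgeR adjusted p = 0.000452), from 134 ± 13.9 CPM in WT CD to 1098 ± 161 in HoipA-KO CD, and had an estimate of 0.82 on HFD (edgeR adjusted p = 0.0649). Apoe, the lipoprotein component, was not called (0.37 and 1.03). Abcg8, a subunit of a sterol transporter, was called higher on CD, but its mean of 0.0230 CPM in WT CD was below the floor of 3 counts, so no fold is given, and WT CD replicate 3 held 2.36 CPM.

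Of 22 other activators of adipogenesis, 2 were higher (9.09%) and 6 lower (27.3%) on CD, and none was higher and 5 lower (22.7%) on HFD, or 1 lower on HFD with all 12 libraries, with medians of -0.49 and -0.38. Srebf1, a regulator of fatty acid synthesis that is also counted among the LXR targets, was lower on both diets (-1.35, edgeR adjusted p = 0.00261, and -0.79, edgeR adjusted p = 0.0479). With all 12 libraries its HFD difference was not called (-0.80, adjusted p = 0.236). Ppargc1a, a coactivator of mitochondrial genes, was lower on CD (-1.76, edgeR adjusted p = 0.00233). Egr2, a zinc finger factor induced with the early C/EBP genes and also known in macrophages, was higher on CD by 3.40 (edgeR adjusted p = 0.00196), at 59.1 ± 8.50 CPM against 5.88 ± 4.67. Klf9, an activator of Pparg, was not called (-0.30 and -0.20).

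Of the 22 inhibitors of adipogenesis, 3 were higher and 3 lower on CD (13.6% each, below the shares over all genes) and 2 were higher and 2 lower on HFD (9.09% each), with medians of -0.09 and -0.02. Wnt10b, a secreted inhibitor of adipogenesis, was lower on CD (-2.74, edgeR adjusted p = 0.00652) and Foxo1, a repressor of Pparg, was lower on both diets (-1.41, edgeR adjusted p = 0.00736, and -1.22, edgeR adjusted p = 0.0301), the latter not with all 12 libraries (adjusted p = 0.0694). The corepressor Ncor1 and the helix-loop-helix inhibitor Id3 were not called on either diet.

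Of 10 relatives of the members in the same protein families, 1 was higher and 4 lower on CD and none was higher and 3 lower on HFD. Ppara, the PPAR of fatty acid oxidation, was lower on both diets (-2.06 and -1.91), as was Rxrg, another partner of PPARs (-2.03 and -2.10), and on HFD neither was called with all 12 libraries (adjusted p = 0.0543 and 0.0521). Nr1h2, which encodes LXR beta, was higher on CD by 0.39 (edgeR adjusted p = 0.0425), and Cebpg was not called. With all 12 libraries the LXR targets, inhibitors and relatives held no call on HFD.

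**Figure D4:**
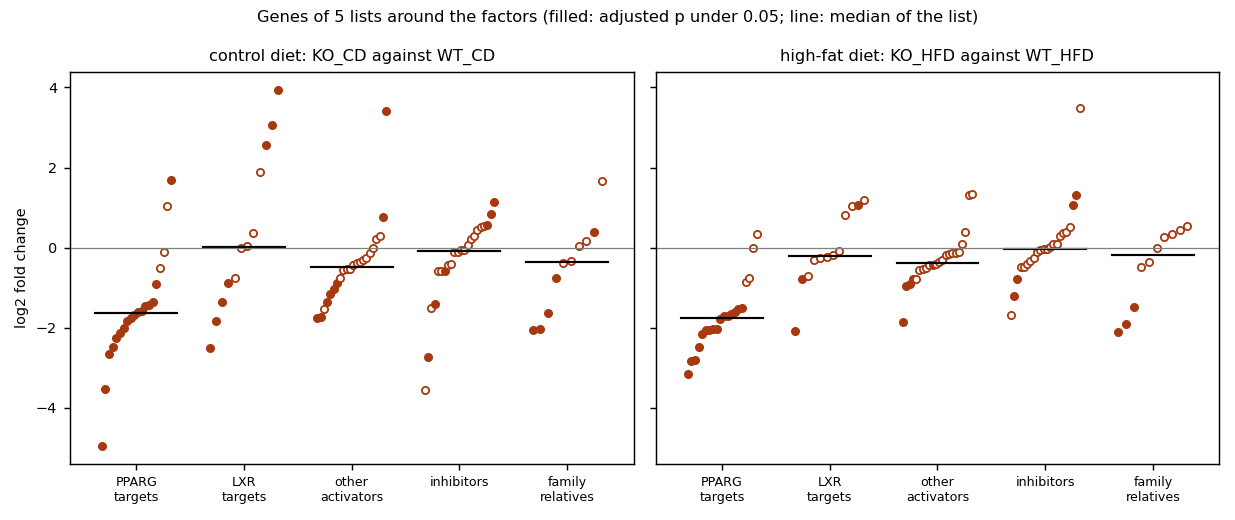
Log2 fold changes between HoipA-KO and WT on CD (left) and HFD (right) for the genes of 5 lists, sorted within each list. Filled points passed an adjusted p of 0.05 and lines are list medians. Of the 20 PPARG targets 16 are lower on each diet, while the LXR targets and inhibitors lie on both sides of 0. The highest LXR target on CD, Abcg8, rests on a WT level below 3 counts.

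Pparg and Cebpa differed less between the genotypes than the adipocyte markers did in the same libraries. Each factor was set against the mean log2(CPM + 1) of the 12 adipocyte markers, which was 9.27 to 10.8 in WT and 7.39 to 8.35 in HoipA-KO libraries. Relative to the markers, Cebpa was at -1.42 to -0.91 in WT CD, -1.33 to -0.80 in WT HFD, -0.20 to 0.12 in HoipA-KO CD and -0.30 to 0.29 in HoipA-KO HFD. Pparg was at -2.85 to -2.58, -2.91 to -2.40, -1.94 to -1.55 and -1.72 to -1.20 in the same groups. Both were thus higher relative to the markers in all 6 HoipA-KO libraries than in any of the 6 WT libraries, although their CPM were lower or overlapped. The same separation held for every other factor except Klf15, so it was not particular to Pparg and Cebpa. For Zfp423 it was narrow, at most -4.158 in WT and at least -4.150 in HoipA-KO libraries. The markers had median log2 fold changes of -2.20 on CD and -2.09 on HFD, beside -0.06 and 0.06 over all genes tested. A gene that did not differ between the genotypes would therefore also rise relative to them. The share of all genes with this separation was not counted.

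Klf15 was the exception among the 10 on CD. Relative to the markers it was at -4.17 to -3.83 in WT CD and -5.12 to -4.34 in HoipA-KO CD, so the genotypes were further apart in Klf15 than in the mean of the markers. On HFD its position was -5.07 to -4.76 in WT and -4.70 to -4.27 in HoipA-KO. The early factors lay furthest from the markers' course: Cebpb went from -5.48 to -5.20 in WT CD to -2.62 to -2.04 in HoipA-KO CD. These differences are descriptions on a log2 scale, and they use the same markers as a common reference for all factors.

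**Figure D5:**
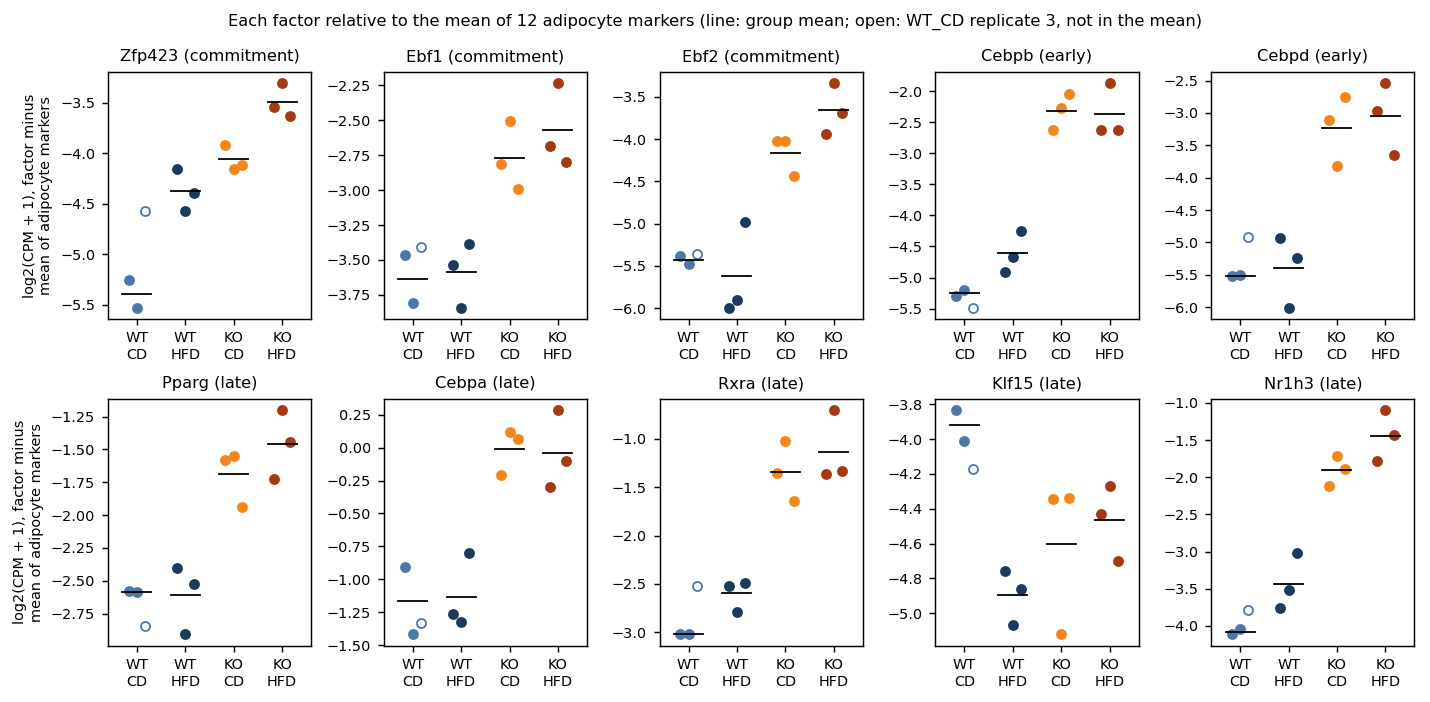
Difference of log2(CPM + 1) between each factor and the mean of 12 adipocyte markers, within each library, by group. Points are libraries, lines are group means, and the open symbol is WT CD replicate 3, not in the mean. On CD, Klf15 is lower relative to the markers in HoipA-KO than in WT, and the other 9 factors are higher. The markers themselves are lower in HoipA-KO, so a gene with no difference between the genotypes would also be higher here.

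The profiles of the factors over the 11 libraries were compared with those of 9847 other genes with a mean of at least 10 CPM, by the root mean square difference of centred log2(CPM + 1) values. The nearest to Klf15 were Slc2a4 (0.24), which encodes the insulin-responsive glucose transporter, Gpat3 (0.28) and Prodh (0.29), with a median of 1.32 over all genes. The nearest to Pparg were Npr2 (0.12), Akap7 (0.14) and Hoxc6 (0.14), and those to Cebpa were Mst1r, Eif4ebp1 and Fah (0.17 to 0.18), against medians of 0.73 and 0.72. Ebf1 was nearest to Fbxo21, Amotl2 and Scn7a (0.12 to 0.13), Zfp423 to Plce1, Cdh13 and Epn2 (0.16 to 0.19) and Ebf2 to Rhobtb1, Zbtb5 and Fbxo31 (0.20).

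The early factors had other neighbours. Cebpb was nearest to Tmem160 (0.17), Cenpb (0.19) and Klf2 (0.21), and Cebpd to Per1 (0.29), Nfkbia (0.30) and Gadd45g (0.33), genes known to respond quickly to stimuli or, for Per1, to the circadian clock. Rxra was nearest to Klhl5, Exoc6 and Rab3d (0.09 to 0.10) and Nr1h3 to Mgmt, Spr and Eng (0.10 to 0.11). The profiles share the same libraries, and the high WT CD replicate 1 enters every one of them.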

How the data were processed

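The authors trimmed reads with Trim Galore 0.6.7, aligned them with STAR 2.7.10a and estimated counts with Salmon 1.5.2 as run by an nf-core workflow. They deposited expected (estimated) counts per gene without normalization. The labels name GRCm38 and the methods GRCh38, while the identifiers are mouse genes, so counts were given no positions. Deposited columns of the authors' own comparisons (DESeq2 fold changes and p-values) were not used.

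Counts were rounded and tested in edgeR 4.0.16 (R 4.3.3: filterByExpr, TMM, quasi-likelihood test, SE from the F statistic) over 4 groups and 11 libraries, leaving out WT CD replicate 3 as those comparisons did. Benjamini-Hochberg adjustment covered all 18427 genes tested, with calls at an adjusted p under 0.05. The order per length used GENCODE vM21 exons, although the identifiers come from a newer annotation. DESeq2 1.42.0 was an alternative, and the scripts were tested on simulated data. A library is a pool of 3 mice, so p-values measure the spread between pools. Named genes were all members and, per list, the 2 most abundant and the 2 with the largest called change on CD. Members, lists and tests were chosen with earlier results of these data known.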

Additional observations from a re-analysis of the deposited data

How the results depend on the processing

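The choice of WT CD libraries changed most. With all 12 libraries the members called lower were 2 on CD and 0 on HFD, where 6270 and 503 of 18074 genes were called in either direction. With WT CD replicates 1 and 3 they were 3 and 1, where 6681 and 672 of 18556 genes were called. Replicates 2 and 3 gave 2 lower and 2 higher on CD. With replicates 2 and 3, 6 members were called higher with HFD in WT, and 4 lower in the interaction. In that fit 8264 genes were called on CD, 7046 for HFD in WT and 3550 in the interaction, of 19416 tested. The main fit called 6947, 2731 and 721 of 18427. Fitting only the groups compared gave 3 lower on CD, where 4208 of 17406 genes were called in either direction. DESeq2 called 1 member lower with HFD in WT, where it called 4551 of 18427 genes. The HFD comparison itself holds no WT CD library, and with 11 and 12 libraries its estimates were -1.92 and -1.94 for Klf15 and -1.11 and -1.13 for Pparg. The spread was estimated over all groups together, with a common biological coefficient of variation of 0.39 with 11 libraries and 0.51 with 12. The causes of the changes in calls were not tested. Without 1 WT HFD or HoipA-KO library, 5082 to 7041 genes were called on CD, 279 to 2601 on HFD and 1045 to 2805 for HFD in WT. Leaving out 1 library at a time gave 2 to 7 members lower and 0 to 1 higher on CD, 0 to 6 lower on HFD, and 0 to 3 higher and 0 to 3 lower with HFD in WT.

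Signs also changed. With all 12 libraries these were Nr1h3 on CD (0.0936), Cebpb on HFD (-0.0056), and Pparg (-0.0215) and Cebpa (-0.21) in the interaction. With WT CD replicates 1 and 3 it was Cebpb on HFD (-0.0046). With replicates 2 and 3 these were Rxra (0.0285) and Nr1h3 (0.63) on CD, Cebpb on HFD (-0.0056), Ebf1 (0.57), Ebf2 (0.34), Cebpd (0.46), Pparg (0.62) and Cebpa (0.76) for HFD in WT, and Ebf1 (-0.69), Ebf2 (-0.15), Pparg (-0.71), Cebpa (-1.13) and Klf15 (-0.0288) in the interaction. Rxra for HFD in WT was -0.0271 without a filter on low counts, -0.0296 with protein-coding genes only and -0.0318 with only the groups compared. Cebpb on HFD was -0.0194 with protein-coding genes only, and Pparg between diets in HoipA-KO was 0.0015 with library size alone.

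Leaving out 1 library at a time changed signs within these ranges: on CD, Cebpd -0.35 to 0.83, Rxra -1.07 to 0.0185 and Nr1h3 -0.53 to 0.50; on HFD, Cebpb -0.0649 to 0.0728 and Cebpd -0.18 to 0.51. For HFD in WT the ranges were Ebf1 -0.97 to 0.51, Ebf2 -1.11 to 0.14, Cebpb -0.17 to 0.89, Cebpd -0.65 to 0.49, Pparg -0.85 to 0.29, Cebpa -1.07 to 0.56, Rxra -0.41 to 0.71 and Nr1h3 -0.16 to 0.89. Between diets in HoipA-KO they were Pparg -0.21 to 0.0339 and Cebpd -0.64 to 0.14. In the interaction they were Zfp423 -1.27 to 0.16, Ebf1 -0.63 to 0.84, Cebpd -0.78 to 0.40, Pparg -0.38 to 0.75, Cebpa -0.93 to 0.70, Rxra -0.82 to 0.29 and Nr1h3 -0.75 to 0.30.

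Replicate numbers were not treated as pairs. Deviations of same-numbered libraries correlated at -0.37 to 0.50 over 15 pairs, and those of differently numbered libraries at -0.51 to 0.43 over 30. Of 11 libraries, 6 correlated best with their own number. The 2 WT CD libraries deviate from their mean as mirror images, so their correlations have opposite signs by construction. These correlations do not decide whether the numbers mark pairs. With the replicate block, 6 members were lower on CD, Zfp423 among them (-0.91, edgeR adjusted p = 0.0473), and 4 on HFD, the interaction of Cebpd was 0.0280, and calls over all genes were 5893 on CD, 2561 on HFD, 1502 for HFD in WT (2731 without the block) and 377 in the interaction (721 without). The replicate block with all 12 libraries, added after seeing the data, gave 3 members lower on CD and 1 on HFD. Over all genes that fit called 5027 on CD and 782 on HFD of 18074 tested. It changed the sign of Nr1h3 on CD (0.13), Cebpb on HFD (-0.0106), Pparg for HFD in WT (0.0236), and Ebf1 (-0.0744), Pparg (-0.0710) and Cebpa (-0.35) in the interaction.

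Over all genes, DESeq2 called 4410 on HFD, 4551 for HFD in WT and 2350 in the interaction, beside 2179, 2731 and 721 in edgeR. All 12 libraries gave 503 calls on HFD. Fitting only the groups compared gave 4208 on CD (6947 with all groups) and 0 for HFD in WT, where 4666 genes passed an unadjusted p under 0.05. With library size alone the HFD calls were 1279 higher and 1133 lower, beside 774 and 1405. Scaling by spike-ins was not run, because the table used here lists no such rows.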
